A study of Bos taurus with 6 samples.

Results

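The genes described here encode glycoproteins and proteoglycans of the extracellular matrix and the enzymes and chaperones that process and crosslink it. They were 50 of the 23475 genes in the expression table, chosen by name as the entries whose identifier is "gene-" followed by the gene symbol, and collagens and laminins were left out. All 50 were found by their own symbol. The study examined bta-miR-484 in bovine fat cell precursors, and its RNA sequencing compared cells that received an agomir of this microRNA with cells that received a control. Agomirs are modified RNA duplexes that supply cells with extra copies of a microRNA, and the agomir NC served as the negative control. Cells isolated from the subcutaneous fat of calves were transfected with the bta-miR-484 agomir (n = 3 libraries) or with the agomir NC (n = 3 libraries) and collected 48 h later. The labels call the sequenced cells adipocytes, and the study's methods use both adipocyte and preadipocyte for cells isolated in this way. Whether the 3 libraries of a group came from separate calves or separate cultures is not stated, so the p-values measure only the spread between these libraries, which may be technical. Levels are given in FPKM, which is normalized for transcript length and for the fragments mapped in a library, so levels of different genes can be set side by side. The depth of each library is unknown, and no counting error can be given.

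Matrix glycoproteins such as fibronectin and the fibrillins form fibers to which cells attach, and matricellular proteins such as thrombospondins adjust how cells respond to those fibers. Proteoglycans carry glycosaminoglycan chains that bind water, collagen and growth factors. Lysyl oxidases start the crosslinks that stiffen collagen and elastin, and lysyl hydroxylases modify lysines of collagen. Fat cell precursors remodel this fibrous matrix when they become fat-storing cells.

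Markers were read first to check the cell label. Genes of stromal cells were abundant, with PDGFRA at 162 to 172 FPKM over the 6 libraries, VIM at 5156 to 5685 and COL1A1 at 5473 to 6364. DLK1, a marker of some preadipocytes, was listed at 0 in all 6 libraries, and CD34 reached at most 0.783. Markers of mature fat cells were low or near 0, with ADIPOQ at most 0.197 FPKM, LEP at most 0.0368, CIDEC at most 0.230 and PLIN1 at 0.974 to 1.56. The others of that list were LPL at 3.48 to 4.33, PPARG at 2.96 to 3.99, FABP4 at 1.54 to 3.57 and CEBPA at 0.208 to 0.845. The libraries thus carried a stromal profile with little RNA of mature adipocytes, whichever name the cells are given. Of the 10 stromal markers 8 were tested, and none was higher and 1 lower with the agomir at an unadjusted limma p of 0.05, the surface enzyme NT5E (log2 fold change -0.25, limma adjusted p = 0.209). The fold change was negative in 6 of these 8, with a median of -0.071, and in 3 of them (NT5E, ENG and S100A4) the agomir libraries were all below the controls, as in 6.36% of all genes tested. Summed over this list, led by COL1A1 and VIM, FPKM was 12935, 13280.2 and 12752 in agomir replicates 1 to 3 and 12485, 13430.1 and 13325 in agomir NC replicates 1 to 3. Of the 8 adipocyte markers 5 were tested, and at the same threshold PPARG was higher (limma adjusted p = 0.407) and FABP4 lower (adjusted p = 0.363). At this threshold 6.63% of all genes tested were higher and 4.31% lower. The fold change was positive in 4 of these 5 adipocyte markers and negative in 1, with a median of 0.14, where 55.1% of all genes tested were positive. This list, led by LPL, summed to 11.5, 12.3 and 11.4 FPKM with the agomir and 12.6, 11.02 and 11.1 with the agomir NC. The part of the stromal and adipocyte markers in the differences given below was not tested.

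Markers of other cell types that subcutaneous fat can hold were mostly near 0. Among 7 endothelial markers EMCN was listed at 0, PECAM1 reached 0.147 FPKM, CDH5 reached 0.182, and VWF was the most abundant at 2.99 to 3.67. This endothelial list summed to 4.59, 3.89 and 4.29 FPKM with the agomir and 4.30, 4.58 and 4.07 with the agomir NC. Among 8 leukocyte markers C1QA and C1QB were listed at 0, PTPRC reached 0.119, and CD14 was the most abundant at 5.85 to 6.45. Their sum was 8.19, 8.27 and 6.93 FPKM with the agomir and 8.15, 8.06 and 7.68 with the agomir NC. Of the 6 smooth muscle and pericyte markers ACTA2, which cultured stromal cells also express, was at 196 to 219.5. CNN1 was at 11.4 to 17.3 and NOTCH3 at 2.91 to 3.36, while DES reached 0.460, MYH11 0.433 and RGS5 0.0816. That list summed to 228, 222 and 217 FPKM with the agomir and 241, 211 and 233 with the agomir NC. In the cartilage and bone list SOX9 was at 2.54 to 5.22 and COL2A1 reached 0.0110, and in the Schwann cell list S100B was at 3.08 to 4.87 and SOX10 was listed at 0. The summed levels of these lists were 4.27 and 4.02 with the agomir and 3.35 and 4.50 with the agomir NC. Skeletal muscle genes MYOD1, MYOG and CKM, the keratins KRT5 and KRT14 and the hemoglobin gene HBB were listed at 0 in every library, and EPCAM, the most abundant of the epithelial list, reached 0.312 FPKM. No tested gene of these lists of other cell types passed an unadjusted limma p of 0.05. In bulk RNA, fewer cells of a type and less RNA per cell cannot be told apart.

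Expression of the 50 matrix genes spanned a wide range. The filter used for testing, a 6-library mean of 0.5 FPKM or more, was passed by 43, a mean of at least 100 FPKM by 23 and at least 1000 FPKM by 3. SPARC, a collagen-binding glycoprotein, ranked 5 and DCN (decorin) ranked 7 among all 23475 genes by mean FPKM. LUM (lumican) ranked 33, FBLN2 (fibulin 2) 46, the collagen chaperone SERPINH1 59 and VCAN (versican) 69. Together the 50 genes summed to 14591, 14895 and 14776 FPKM in the agomir libraries and 14865, 15190.5 and 15413 in the agomir NC libraries. This was 3.96, 4.05 and 4.03% of the summed FPKM of agomir replicates 1, 2 and 3 and 4.02, 4.15 and 4.06% of agomir NC replicates 1, 2 and 3. Agomir replicate 2 lay above agomir NC replicate 1, so the sums of the groups overlapped.

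The remaining 7 genes were under the filter. HAPLN1, which links hyaluronan to proteoglycans, was listed at 0 in all libraries. The cartilage proteoglycan ACAN reached 0.0202 FPKM, SPARCL1 0.0630, the calcification inhibitor MGP 0.0960 and the cartilage glycoprotein COMP 0.156. FBN2 (fibrillin 2) was at 0.148 to 0.207, and the membrane-anchored proteoglycan GPC3 was at 0.232 to 0.650. A value of 0 in such a table can also be a failed estimate, and these 7 genes enter no count of differences.

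**Figure D1:**
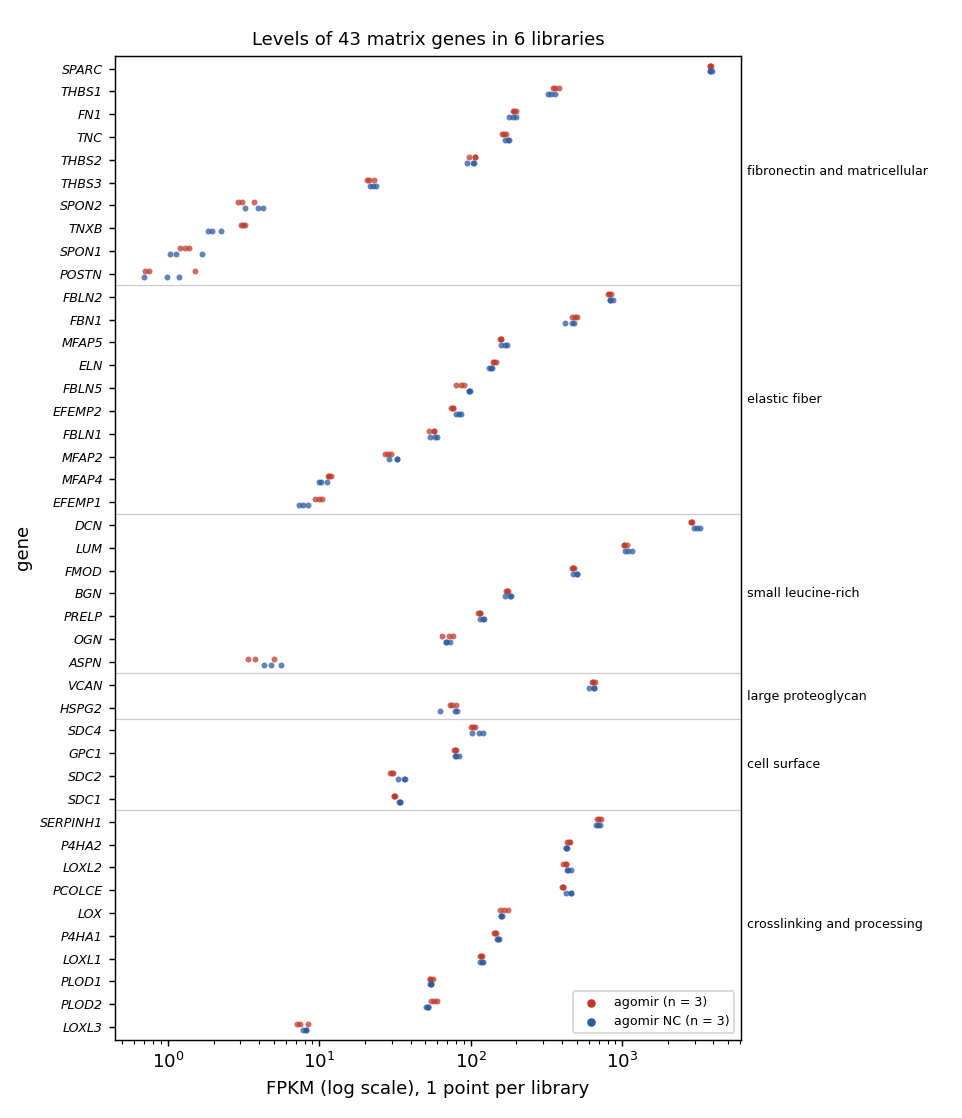
Each point is 1 library, with FPKM on a log axis, for the 43 matrix genes tested, grouped by role (red, agomir, n = 3; blue, agomir NC, n = 3). SPARC and DCN lie at the right at 3784 to 3930.5 and 2840.4 to 3248 FPKM, POSTN lies at the left at 0.693 to 1.51, and most genes have agomir and agomir NC points close together.

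The comparison of agomir with agomir NC asks which of these genes differed 48 h after the microRNA was supplied. No matrix gene passed an adjusted p of 0.05 in limma, and of all 12422 genes tested 1 did (0.00805%). At an unadjusted limma p of 0.05, 3 of the 43 tested matrix genes were higher with the agomir (6.98%) and 6 were lower (13.95%), against 6.63% higher and 4.31% lower among all genes tested. The 3 higher were TNXB, EFEMP1 and PLOD2, and the 6 lower were FBLN5, EFEMP2, DCN, SDC1, SDC2 and PCOLCE. The share of higher genes lay close to that of all genes. The share of lower genes was above it, and abundant genes were lower more often in general. Among the 1133 genes whose mean was 50 FPKM or more, a level set after the data were seen, 6.09% were higher and 9.18% lower at an unadjusted p of 0.05, and of the 31 matrix genes at that level 1 was higher (3.23%) and 4 were lower (12.9%). The scaling of the libraries moved these counts: with median-ratio scaling 3 matrix genes were higher and 11 lower (5.16% and 5.81% of all genes), and with quantile normalization 6 were higher and 6 lower (5.60% and 5.06% of all genes). Single libraries moved them too, with 4 higher and 11 lower without agomir NC replicate 1 (6.68% and 4.80% of all genes) and 5 higher and 6 lower without agomir NC replicate 2 (5.28% and 4.29% of all genes). The 1 gene of all tested that passed the adjusted threshold became 0 without agomir replicate 1 or agomir NC replicate 2 and 2 without agomir NC replicate 3.

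Differences were small in most matrix genes. The log2 fold change of agomir over agomir NC, on the log2(FPKM + 0.5) scale, ranged from -0.25 to 0.53, and 29 of 43 genes lay within 0.1 of 0. It was positive in 17 genes (39.5%) and negative in 26, and the positive share was 55.1% over all genes tested and 41.7% over genes of at least 50 FPKM, close to that of the matrix genes. The median was -0.035, beside 0.013 over all genes tested and -0.016 over genes of at least 50 FPKM, and with quantile normalization it was -0.0040. Their median standard error was 0.046 on the log2 scale, against 0.084 over all genes tested and 0.047 over genes of at least 50 FPKM. The groups were also compared by whether their libraries overlapped. In 6 matrix genes every agomir library lay above every agomir NC library (TNXB, ELN, EFEMP1, MFAP4, PLOD2 and P4HA2), and 10.9% of all genes tested did so. In 9 every agomir library lay below (FBLN5, EFEMP2, DCN, PRELP, SDC1, SDC2, LOXL2, PCOLCE and P4HA1), against 6.36% of all genes tested. Each of these separated genes had an exact two-sided permutation p of 0.1, the smallest that 3 libraries against 3 can give, so this test cannot reach 0.05. The other 28 overlapped.

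**Figure D2:**
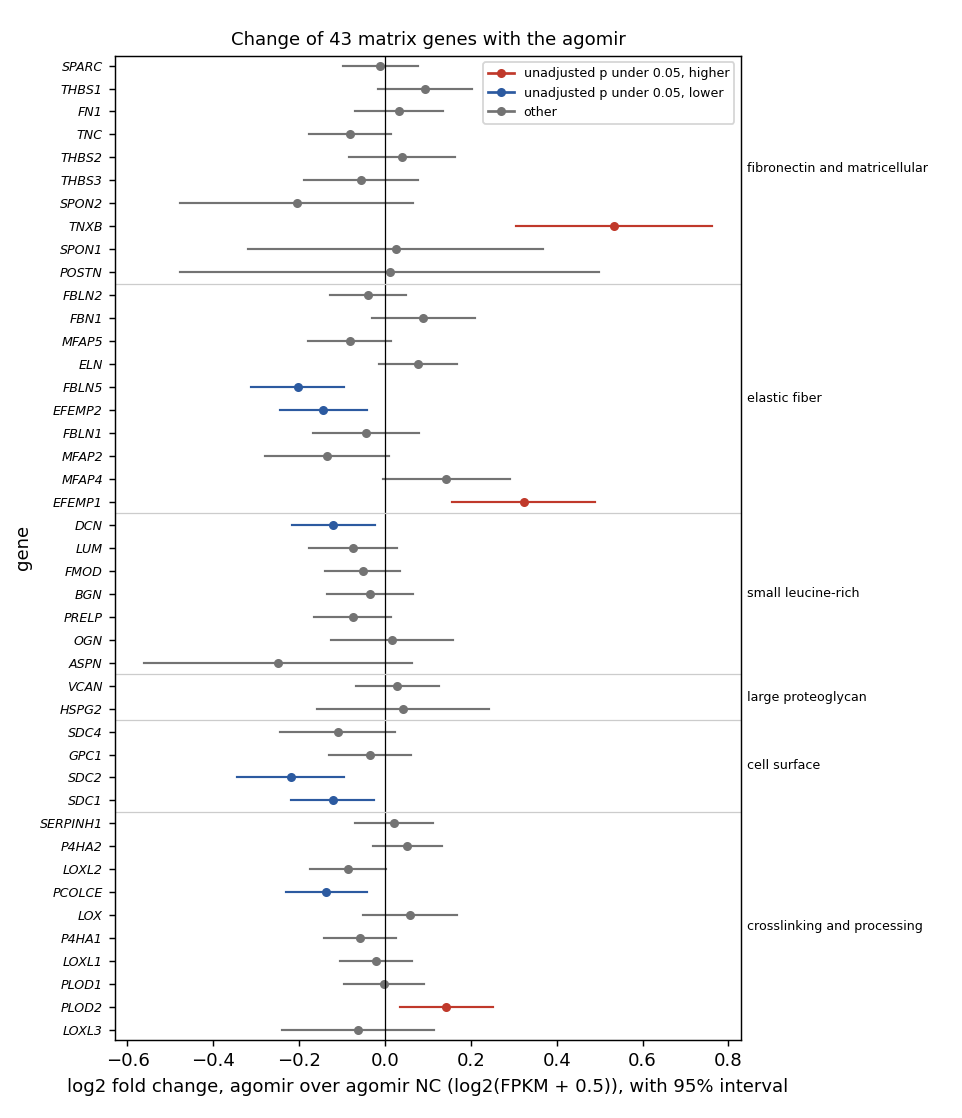
Log2 fold change of agomir over agomir NC with its 95% interval from limma (n = 3 libraries per group) for the 43 matrix genes tested, grouped by role and ordered by level within each role. TNXB lies farthest to the right at 0.53, most genes lie within 0.1 of 0, and the 3 genes higher (red) and 6 lower (blue) at an unadjusted p under 0.05 have intervals that leave out 0.

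Fibronectin and the matricellular glycoproteins showed 1 gene above and none below the unadjusted threshold among 10 tested of 13, a count near the 6.63% higher and 4.31% lower of all genes tested. TNXB encodes tenascin X, a glycoprotein that associates with collagen fibrils in loose connective tissue. It was at 3.13, 3.21 and 3.05 FPKM in agomir replicates 1, 2 and 3 and at 2.25, 1.96 and 1.83 in agomir NC replicates 1, 2 and 3. All 3 agomir libraries lay above all 3 control libraries, and the agomir libraries differed little among themselves. The means were 3.13 ± 0.0796 and 2.02 ± 0.216 FPKM (SD, n = 3), and the agomir mean was 1.55 times that of the agomir NC. The log2 fold change was 0.53 (SE 0.10, 95% interval 0.30 to 0.76, limma adjusted p = 0.174), which ranked 30 of 12422 by p. It ranged from 0.48 to 0.60 when any single library was left out. In the RefSeq table TNXB overlaps CYP21A2, a steroid hydroxylase gene named CYP21 in the expression table, which reached at most 0.0725 FPKM, and whether reads were assigned by strand is not given in the sources used here.

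SPARC, the most abundant of the 50, was at 3786, 3796 and 3843 FPKM in agomir libraries and 3784, 3796 and 3930.5 in agomir NC libraries. Its groups overlapped, and agomir NC replicate 3 was the highest library. The log2 fold change was -0.011 (95% interval -0.098 to 0.076, limma adjusted p = 0.950), and with quantile normalization it was 0.053. SPON2 (spondin 2), a low-level glycoprotein, was at 2.89, 3.09 and 3.70 FPKM in agomir libraries and 3.23, 4.23 and 3.95 in agomir NC libraries. Agomir replicate 3 lay among the controls, and the log2 fold change of -0.21 (SE 0.12) did not pass (limma adjusted p = 0.578), although it was -0.30 without agomir replicate 3 and -0.31 without agomir NC replicate 1, past the unadjusted threshold in both, and -0.13 without agomir NC replicate 2. THBS1, which activates latent TGF-beta, was at 323 to 380.0 FPKM over the 6 libraries (log2 fold change 0.093) and overlaps FSIP1 (at most 0.235 FPKM). FN1, the fibronectin gene, was at 179.6 to 199.7 (log2 fold change 0.033) and TNC, tenascin C, at 160.4 to 179.8 (log2 fold change -0.081). Over the 15 alternatives the log2 fold change of THBS1 was 0.056 to 0.14, lowest without agomir NC replicate 2, and it passed the unadjusted threshold with quantile normalization and without agomir NC replicate 1. That of TNC was -0.11 to -0.057 and passed with median-ratio scaling and without agomir NC replicate 3. Log2 fold changes of the other thrombospondins were 0.039 for THBS2 at 94.6 to 107 FPKM and -0.056 for THBS3 at 20.7 to 23.5, the latter from -0.099 without agomir replicate 1 to -0.023 without agomir replicate 3. SPON1 at 1.03 to 1.68 and POSTN (periostin) at 0.693 to 1.51 were low, and their coefficients of variation were 7.08% and 46.1% with the agomir and 27.4% and 25.5% with the agomir NC. The 13 genes summed to 4664 ± 34.9 with the agomir and 4673 ± 61.3 with the agomir NC, a ratio of 0.998 that SPARC dominates, and their median log2 fold change was 0.018.

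Elastic fiber genes held members in both directions: of 10 tested of 11, EFEMP1 was higher, FBLN5 and EFEMP2 were lower, and 7 passed neither way, where 6.63% of all genes tested were higher and 4.31% lower (6.09% and 9.18% of genes of at least 50 FPKM). All 3 encode fibulins, glycoproteins that associate with elastic fibers and basement membranes. EFEMP1 (fibulin 3) was at 9.39, 10.4 and 9.97 FPKM in agomir libraries and 7.78, 7.33 and 8.41 in agomir NC libraries. Every agomir library lay above every control library. Its means were 9.93 ± 0.521 and 7.84 ± 0.544 FPKM (SD, n = 3), and the log2 fold change was 0.32 (SE 0.075, 95% interval 0.16 to 0.49, limma adjusted p = 0.247). In the RefSeq table EFEMP1 overlaps LOC107132925, which was not found in the expression table. FBLN5 (fibulin 5), which tethers elastin to cells, was at 80.3, 90.2 and 85.7 FPKM in agomir libraries and 97.7, 97.7 and 99.5 in agomir NC libraries. The 3 control libraries were nearly alike, the agomir libraries were all below them, and agomir replicate 1 was the lowest. Means of 85.4 ± 4.96 and 98.3 ± 1.00 FPKM (SD, n = 3) gave a log2 fold change of -0.20 (SE 0.049, 95% interval -0.31 to -0.095, limma adjusted p = 0.257). EFEMP2 (fibulin 4), needed to bring lysyl oxidase to elastin, was at 76.0, 73.4 and 76.2 FPKM in agomir libraries and 79.6, 83.5 and 86.4 in agomir NC libraries. It too did not overlap between groups, with a log2 fold change of -0.14 (SE 0.045, 95% interval -0.24 to -0.043, limma adjusted p = 0.333). The sign of these 3 fold changes was the same in every alternative processing tried.

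The most abundant gene of this role, FBLN2, was at 800.4, 840.3 and 818 FPKM in agomir libraries and 829, 869 and 828 in agomir NC libraries. Its groups overlapped (log2 fold change -0.039, limma adjusted p = 0.767), and quantile normalization turned the sign (0.057), while leaving out a library gave -0.057 without agomir replicate 2 to -0.015 without agomir NC replicate 2. FBN1, which encodes fibrillin 1, the main microfibril protein, was at 465, 499 and 484.001 FPKM in agomir libraries and 464, 479 and 419.9 in agomir NC libraries. Agomir NC replicate 3 was the lowest library, and the difference of 0.089 on the log2 scale did not pass (95% interval -0.031 to 0.21, limma adjusted p = 0.590). It was 0.033 without agomir NC replicate 3, 0.13 without agomir NC replicate 2, where it passed the unadjusted threshold, and 0.13 with quantile normalization. ELN, the elastin gene, was at 131 to 147 FPKM with all agomir libraries above the controls (log2 fold change 0.077, limma adjusted p = 0.530), and with quantile normalization it was 0.10 and passed the unadjusted threshold. The microfibril-associated genes went different ways, with MFAP4 at 9.97 to 11.8 FPKM and a log2 fold change of 0.14, MFAP2 at 27.2 to 32.7 and -0.14, and MFAP5 at 155 to 173 and -0.082. At the unadjusted threshold MFAP4 passed with no filter and without agomir NC replicate 2, MFAP2 with median-ratio scaling, without agomir replicate 1 and without agomir NC replicate 1, and MFAP5 with either scaling and without agomir NC replicate 1. FBLN1 was at 52.6 to 60.2 FPKM and overlapped between groups (log2 fold change -0.044), and its difference ran from -0.086 without agomir NC replicate 1 to -0.0062 without agomir replicate 2. Summed over the 11 genes, FPKM was 1869 ± 34.6 with the agomir and 1887 ± 49.8 with the agomir NC (ratio 0.990), with a median log2 fold change of -0.041.

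Small leucine-rich proteoglycans, which bind collagen fibrils and set their diameter, were all 7 tested, and 1 of them, DCN, was lower at an unadjusted limma p of 0.05, where 4.31% of all genes tested and 9.18% of genes of at least 50 FPKM were lower. DCN was at 2840.4, 2899 and 2850.4 FPKM in agomir libraries and 2991, 3102 and 3248 in agomir NC libraries. The agomir libraries lay close together and below every control library, and the controls were more spread out. The means were 2863 ± 31.3 and 3114 ± 129 FPKM (SD, n = 3), a ratio of 0.919, with a log2 fold change of -0.12 (SE 0.043, 95% interval -0.22 to -0.024, limma adjusted p = 0.376). The unadjusted call was kept in 10 of 15 alternatives. It was lost with no filter on low values (log2 fold change -0.120) and without the variance trend (-0.120). Leaving out agomir replicate 1 (-0.115) or agomir replicate 3 (-0.117) also lost the call, with a difference about as large. With quantile normalization it was lost as well, and there the difference is 0 because DCN held the same rank in every library. LUM, the next gene to DCN on the chromosome, was at 1033, 1069 and 1025 FPKM in agomir libraries and 1048, 1084 and 1161 in agomir NC libraries. Agomir replicate 2 lay among the controls, and the log2 fold change of -0.074 did not pass (95% interval -0.18 to 0.029, limma adjusted p = 0.602) and was -0.033 without agomir NC replicate 3 and -0.028 with quantile normalization.

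FMOD (fibromodulin) was at 469, 475 and 478 FPKM in agomir libraries and 473, 499 and 503 in agomir NC libraries, with groups that overlapped (log2 fold change -0.052, limma adjusted p = 0.664, and -0.080 without agomir NC replicate 1). Its chromosomal neighbor PRELP was at 111 to 122 FPKM, with every agomir library below every control library (log2 fold change -0.076, limma adjusted p = 0.530), and with median-ratio scaling it was -0.094 and passed the unadjusted threshold. BGN (biglycan) was at 167 to 183 FPKM and overlapped (log2 fold change -0.035), with a difference of -0.077 without agomir NC replicate 1 to -0.013 without agomir NC replicate 2. ASPN (asporin), the least abundant of the 7, was at 3.37, 5.02 and 3.77 FPKM in agomir libraries and 4.78, 5.55 and 4.29 in agomir NC libraries. With all libraries it had the most negative fold change of the 43 genes (log2 fold change -0.25) with a wide error (SE 0.14, 95% interval -0.56 to 0.063, limma adjusted p = 0.555), and agomir replicate 2 lay among the controls. Single libraries decided its size: it was -0.14 without agomir replicate 1 and -0.40 without agomir replicate 2, where it passed the unadjusted threshold. OGN (osteoglycin) was at 64.3, 76.7 and 72.0 FPKM in agomir libraries and 68.7, 68.6 and 72.7 in agomir NC libraries, and its groups overlapped (log2 fold change 0.016). ASPN and OGN both overlap CENPP, a centromere gene at 1.65 to 2.67 FPKM, which makes the low level of ASPN uncertain. The fold change was positive in 1 of the 7 genes and negative in 6, with a median of -0.074, where 55.1% of all genes tested and 41.7% of genes of at least 50 FPKM were positive. Under quantile normalization that of FMOD turned positive (0.0064) and that of DCN was 0, while with median-ratio scaling that of OGN turned negative (-0.0019). Their sum was 4696, 4809.5 and 4717 FPKM in the agomir libraries and 4869, 5064 and 5293 in the control libraries, with means of 4741 ± 60.4 and 5075 ± 212 (SD, n = 3) and a ratio of 0.934. DCN made up most of this sum, which did not overlap between groups.

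Of the 4 genes of large proteoglycans and their link protein, 2 were expressed above the filter, and neither passed in either direction. VCAN, which binds hyaluronan in loose matrix, was at 634, 663 and 639.5 FPKM in agomir libraries and 649.5, 647 and 602 in agomir NC libraries. The groups overlapped with agomir NC replicate 3 lowest, and the log2 fold change was 0.029 (95% interval -0.068 to 0.13, limma adjusted p = 0.850). HSPG2, which encodes the basement membrane proteoglycan perlecan, was at 73.3, 79.3 and 75.2 FPKM in agomir libraries and 78.9, 81.4 and 62.3 in agomir NC libraries. Its value rested on the low agomir NC replicate 3: the log2 fold change was 0.043 (SE 0.090) with all libraries and -0.078 without that one. In the RefSeq table HSPG2 overlaps LOC132343458, which was not found in the expression table, and LDLRAD2, which was not analysed here. Summed FPKM was 721 ± 18.4 with the agomir and 707 ± 37.3 with the agomir NC (ratio 1.02).

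Cell-surface proteoglycans carry heparan sulfate chains that present growth factors to their receptors. Of the 4 tested of 5, SDC1 and SDC2 were lower at an unadjusted limma p of 0.05, none was higher, and all 4 had negative fold changes in all 15 alternatives. Of all genes tested 4.31% were lower at this threshold and 55.1% had positive fold changes, and of genes of at least 50 FPKM 9.18% were lower and 41.7% had positive fold changes, so a count over 4 genes says little. SDC2 (syndecan 2) was at 30.3, 30.8 and 29.5 FPKM in agomir libraries and 32.8, 36.0 and 36.9 in agomir NC libraries. No agomir library reached the lowest control, and the means were 30.2 ± 0.660 and 35.2 ± 2.17 FPKM (SD, n = 3). The log2 fold change was -0.22 (SE 0.056, 95% interval -0.34 to -0.095, limma adjusted p = 0.273). SDC1 (syndecan 1) was at 31.5, 31.1 and 31.0 FPKM in agomir libraries and 34.3, 34.1 and 33.7 in agomir NC libraries, tight within each group. With means of 31.2 ± 0.240 and 34.0 ± 0.297 FPKM (SD, n = 3) its log2 fold change was -0.12 (SE 0.043, 95% interval -0.22 to -0.025, limma adjusted p = 0.374). The unadjusted call was lost without agomir replicate 3, where the difference was about as large (-0.118). SDC4 was at 101 to 119.9 FPKM with agomir NC replicate 1 among the agomir libraries (log2 fold change -0.11, limma adjusted p = 0.537). Controls decided the size of the SDC4 difference, which was -0.18 without agomir NC replicate 1, where it passed the unadjusted threshold, and -0.059 without agomir NC replicate 3. GPC1 (glypican 1) was at 77.7, 79.5 and 78.5 FPKM in agomir libraries and 79.3, 84.1 and 78.3 in agomir NC libraries, and its groups overlapped (log2 fold change -0.035, limma adjusted p = 0.809), with a difference of -0.055 without agomir NC replicate 3 to -0.0045 without agomir NC replicate 2. The 5 genes summed to 246, 245 and 240.4 FPKM with the agomir and 248, 268 and 269 with the agomir NC, with means of 244 ± 2.85 and 262 ± 11.9 (ratio 0.930), and their median log2 fold change was -0.12.

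All 10 crosslinking and processing genes were tested: PLOD2 was higher, PCOLCE was lower, and 8 passed in neither direction at an unadjusted limma p of 0.05, counts near the 6.63% higher and 4.31% lower of all genes tested. PLOD2, the lysyl hydroxylase of collagen telopeptides, was at 54.3, 59.5 and 57.1 FPKM in agomir libraries and 52.5, 50.2 and 52.0 in agomir NC libraries. Agomir replicate 2 was the highest and agomir replicate 1 lay just above the controls. The means were 57.0 ± 2.60 and 51.5 ± 1.18 FPKM (SD, n = 3) and the log2 fold change 0.14 (SE 0.048, 95% interval 0.036 to 0.25, limma adjusted p = 0.354), and without agomir replicate 2 it was 0.11 and no longer passed. PCOLCE, which enhances the cleavage of procollagen ends, was at 407, 402 and 404 FPKM in agomir libraries and 422, 456 and 458 in agomir NC libraries. The agomir libraries were nearly alike, and agomir NC replicate 1 lay between them and the other controls. Its means were 405 ± 2.61 and 445 ± 20.2 FPKM (SD, n = 3), with a log2 fold change of -0.14 (SE 0.042, 95% interval -0.23 to -0.043, limma adjusted p = 0.330), which was -0.082 with quantile normalization.

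Among the abundant genes of this role, SERPINH1 was at 706, 684 and 719 FPKM in agomir libraries and 696, 669 and 713 in agomir NC libraries, and its groups overlapped (log2 fold change 0.022, limma adjusted p = 0.889). P4HA2, a catalytic subunit of prolyl 4-hydroxylase, was at 434, 451 and 444 FPKM in agomir libraries and 430.1, 423 and 428 in agomir NC libraries. All agomir libraries lay above the controls, but the log2 fold change of 0.052 did not pass (95% interval -0.028 to 0.13, limma adjusted p = 0.630), except with quantile normalization, where it was 0.088 and passed the unadjusted threshold. Its overlapping neighbor PDLIM4 was at 139 to 152 FPKM, so reads of the shared stretch could be credited to either gene. LOXL2, a lysyl oxidase, was at 409, 423 and 423 FPKM in agomir libraries and 433, 461 and 439 in agomir NC libraries. Every agomir library lay below the controls, and the log2 fold change was -0.086 (95% interval -0.18 to 0.0028, limma adjusted p = 0.467), but -0.025 with quantile normalization, and it passed the unadjusted threshold with median-ratio scaling and without agomir NC replicate 1. LOX itself was at 156 to 177 FPKM (log2 fold change 0.058), LOXL1 at 116 to 120.2 (log2 fold change -0.021) and LOXL3, which overlaps HTRA2 (7.60 to 9.27 FPKM), at 7.09 to 8.46 (log2 fold change -0.063), all with overlapping groups. Leaving out a library moved LOX from 0.011 without agomir replicate 2 to 0.10 without agomir replicate 1, LOXL3 from -0.13 without agomir replicate 2 to -0.011 without agomir replicate 1 and LOXL1 from -0.037 without agomir NC replicate 1 to -0.0090 without agomir NC replicate 2. P4HA1, the other catalytic subunit listed, was at 143 to 155 FPKM (log2 fold change -0.058), the opposite sign to P4HA2, and with quantile normalization it was -0.030. PLOD1 was at 53.5 to 55.9 FPKM, with a log2 fold change of -0.0021 (95% interval -0.095 to 0.091). Summed over the 10 genes, FPKM was 2516 ± 26.2 with the agomir and 2552 ± 34.6 with the agomir NC (ratio 0.986), and the median log2 fold change was -0.012.

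**Figure D3:**
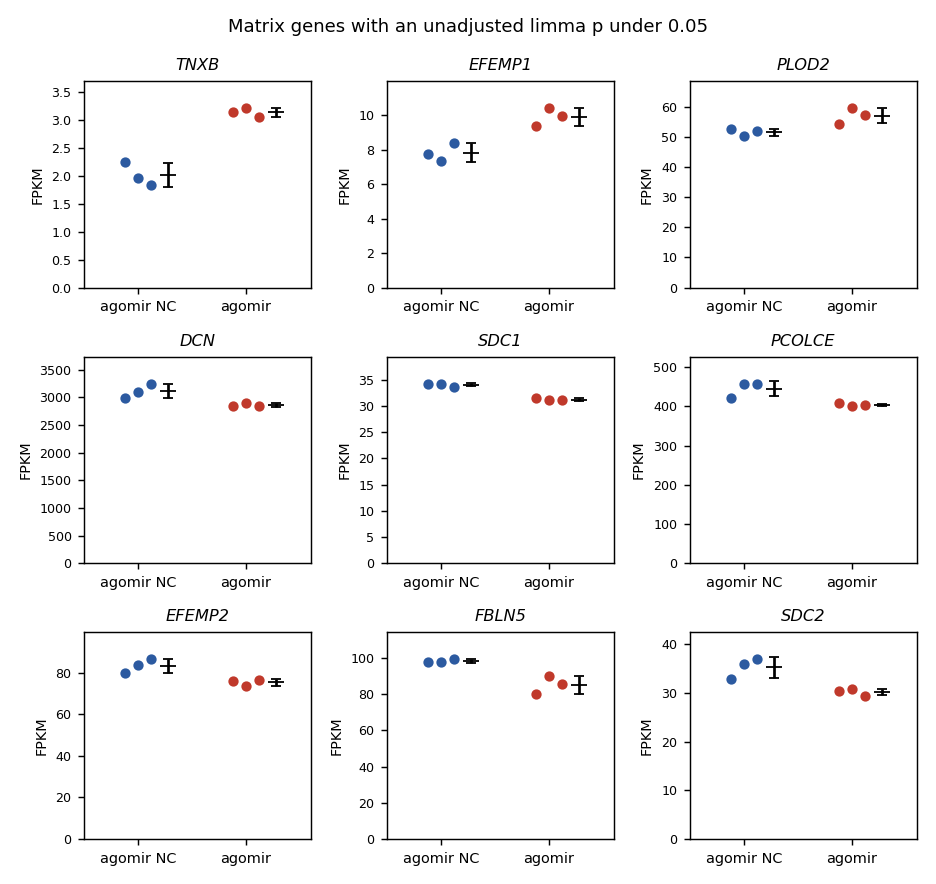
FPKM of the 9 matrix genes with an unadjusted limma p under 0.05, with 1 point per library and the mean ± SD beside the points (n = 3 per group), on axes that start at 0. TNXB, EFEMP1 and PLOD2 lie higher with the agomir (red) than with the agomir NC (blue) and the other 6 lie lower, with TNXB at 3.13 against 2.02 FPKM and DCN at 2863 against 3114.

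Further matrix genes outside the 50 were read in the same way from a list of 88 names, of which 86 were found (82 by symbol and 4 by a synonym) and 65 were tested. None passed an adjusted limma p of 0.05 (lowest 0.225), and at an unadjusted p of 0.05, 4 were higher (6.15%) and 10 were lower (15.4%), against 6.63% and 4.31% of all genes tested and 6.09% and 9.18% of genes of at least 50 FPKM, with a median log2 fold change of -0.0056. TGFBI, an adhesion protein induced by TGF-beta, was at 77.1, 79.2 and 82.2 FPKM in agomir libraries and 90.5, 93.1 and 89.1 in agomir NC libraries, with no overlap (log2 fold change -0.19, limma adjusted p = 0.225). HAS2, a hyaluronan synthase, was at 6.75, 7.56 and 7.96 FPKM in agomir libraries and 6.07, 5.46 and 6.22 in agomir NC libraries, with all agomir libraries higher (log2 fold change 0.30, limma adjusted p = 0.310). In the list of further processing enzymes and chaperones 4 of 13 tested were lower and none was higher, where 4.31% of all genes tested and 9.18% of genes of at least 50 FPKM were lower. Of these PPIB, a collagen-folding isomerase, was at 286 to 335 FPKM (log2 fold change -0.12) and FKBP10, another such isomerase, at 158 to 177 (log2 fold change -0.11). Among further glycoproteins AEBP1 was at 31.3 to 37.3 FPKM (log2 fold change -0.17), SRPX at 33.7 to 42.7 (log2 fold change -0.17) and EMILIN2 at 101 to 114 (log2 fold change 0.11). EXT2, a heparan sulfate polymerase, was at 41.0 to 45.7 FPKM (log2 fold change -0.12), ECM2 at 46.8 to 53.6 (log2 fold change -0.13), and the glypican GPC4 at 22.1 to 30.3 (log2 fold change -0.23) with groups that overlapped. In glycosaminoglycan synthesis 2 of 17 were higher and 1 was lower. The total of 14 past the unadjusted threshold was 7 without agomir replicate 3, 7 without a variance trend and 9 without agomir NC replicate 2. Among all genes tested 1359 passed it, 1101 without agomir replicate 3, 1249 without a variance trend and 1189 without agomir NC replicate 2. Over both lists 108 genes were tested, and 7 were higher (6.48%) and 16 lower (14.8%) at the unadjusted threshold. The higher share was close to the 6.63% of all genes tested, and the lower share was above their 4.31%. These 108 genes were of all levels (median of their means 44.0 FPKM), so the 9.18% of genes of at least 50 FPKM is not a like comparison. No count over both lists is given at that level or under an alternative.

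The 6 libraries were much alike across all genes. Correlations of log2 values across all tested genes were 0.9928 to 0.9937 between libraries of a group and 0.9912 to 0.993 between groups; genes are not independent replicates, and this is a description of the libraries. Summed FPKM ran from 365977 to 379361, highest in agomir NC replicate 3. The median coefficient of variation of the 43 matrix genes was 2.51% among the agomir libraries and 4.14% among the controls. Within groups the genes did not all move together. Agomir replicate 1 held the lowest value of the 6 libraries in 14 genes, among them DCN, FMOD, FBLN2, FBLN5, LOXL2 and LOX. Agomir replicate 2 held the highest in 12, and agomir NC replicates 2 and 3 held it in 14 and 12. Such counts were not made over all genes, so they are not read as a trait of the matrix genes. Agomir NC replicate 3 was the highest library for SPARC, DCN, LUM and FMOD and at the same time the lowest for FN1, FBN1, THBS2, TNXB, VCAN and HSPG2. Over the groups the 50 genes summed to 14754 ± 153 FPKM with the agomir and 15156 ± 276 with the agomir NC (SD, n = 3), a ratio of 0.973, and these sums overlapped.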

How the data were processed

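RNA from 6 libraries, 3 per group, was sequenced by the study. The deposited values are FPKM per gene, made by the authors from their reads; the submitters' processing notes name fastp, HISAT2 and StringTie, with versions not given in the sources used here, and the genome build ARS-UCD1.2. No read counts were used, whole reads could not be recovered from low values, and the depth is unknown. Testing was limited to the 12422 of 23475 genes averaging 0.5 FPKM or more and used log2(FPKM + 0.5), with a pseudocount of 0.5, so that fold changes of low genes are understated. Agomir was compared with agomir NC in limma 3.58.1 (R 4.3.3) with a 2-sided moderated test, a variance trend and no replicate term, and Benjamini-Hochberg adjustment covered all 12422 genes. The fit was tested on simulated data with changes larger than any measured in the matrix genes, so that test does not show how well small differences are found. An exact two-sided permutation test over 20 labelings was run for each gene. The members and lists were chosen with earlier results of these data known. Values in every library are printed for members with an unadjusted p under 0.05, the 10 most abundant, the 5 with the largest fold change and the extremes of each role; from the other matrix list the 10 with the lowest p were named. Gene neighbors were read from a RefSeq table of assembly ARS-UCD2.0, which differs from the build of the values, so no coordinates are given. Alternatives were other pseudocounts, filters, scalings and weights, no variance trend, a replicate block and leaving out each library.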

Additional observations from a re-analysis of the deposited data

How the results depend on the processing

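No matrix gene passed an adjusted p of 0.05 in limma under any of 15 alternatives (lowest adjusted p 0.158), and of 644 values of single genes 22 turned sign; the causes of the differences below were not tested. The 1 gene of all tested that passed became 0 with no filter on low values (1604 genes at an unadjusted p of 0.05), 0 without a variance trend (1249) and 0 with a replicate block (1260), and 0 to 2 when a library was left out. Matrix genes lower at the unadjusted threshold numbered 6, 11 with median-ratio scaling and 5 to 11 when a library was left out. The 11 there came without agomir NC replicate 1. Of all genes tested 4.31% were lower, 5.81% with median-ratio scaling and 3.08% to 4.80% when a library was left out. Matrix genes higher numbered 3, 6 with quantile normalization and 2 to 5 when a library was left out. The 5 came without agomir NC replicate 2. Of all genes tested 6.63% were higher, 5.60% with quantile normalization and 4.47% to 6.68% when a library was left out. Among genes of at least 50 FPKM, a setting added after seeing the data, 1 matrix gene was higher, beside 6.09% of all genes at that level. The median log2 fold change of the matrix genes moved from -0.035 to -0.0040 with quantile normalization. It lay between -0.055 and -0.018 when a library was left out. Of the other matrix genes 14 passed at the unadjusted threshold, 7 without a variance trend and 7 to 13 when a library was left out (7 without agomir replicate 3 and 9 without agomir NC replicate 2). Among all genes tested 1359 passed it, 1249 without a variance trend and 1006 to 1423 when a library was left out. The log2 ratio of the summed FPKM of the matrix genes was -0.039, -0.057 with median-ratio scaling, and -0.053 to -0.027 when a library was left out.

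Signs turned with quantile normalization for FBLN2 (0.057), SPARC (0.053) and FMOD (0.0064), with median-ratio scaling for POSTN (-0.0012) and OGN (-0.0019), and with array weights for PLOD1 (0.0033) and POSTN (-0.029). They also turned when a library was left out, over these ranges: SERPINH1 (-0.0028 to 0.043), PLOD1 (-0.023 to 0.0099), SPARC (-0.021 to 0.0069), FN1 (-0.0046 to 0.072), THBS2 (-0.0044 to 0.085), SPON1 (-0.074 to 0.18), POSTN (-0.23 to 0.14), VCAN (-0.0070 to 0.048), HSPG2 (-0.078 to 0.11) and OGN (-0.042 to 0.085). These genes had fold changes near 0 with all libraries.

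Replicate numbers are shared by the groups, but the deviations of same-numbered libraries correlated at -0.0506, 0.0532 and 0.0387. No strong shared deviation was thus seen between libraries of equal number. Such correlations cannot tell whether these libraries shared a calf or a culture, so pairing by number stays undecided. With the replicate block 3 matrix genes were higher and 7 lower, with ASPN added (5.94% and 4.20% of all genes), and 0 passed the adjusted threshold. Without counts or depth, the precision of genes such as TNXB, EFEMP1 and ASPN, which lie near or under 10 FPKM, is known only from the spread between 3 libraries.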
